A study of Mus musculus with 4 samples.

Results

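The transcription factor genes Dlx5, Dlx6, Msx2, Tfap2b, Prrx2, Hand2 and Meox1, which pattern the embryonic tissues from which the aortic wall is built, were followed through single cells of the adult mouse thoracic aorta. They were chosen by name, with earlier results of these data known, and are 7 of the 17524 genes listed in every library. The KO AngII library came from mice with a whole-body knockout of Sting, the gene of an adaptor of cytosolic DNA sensing, that had received angiotensin II (AngII), a peptide that raises blood pressure, for 7 days and a high fat diet for 5 weeks. The WT AngII library came from wild type mice given the same infusion and diet. The KO saline and WT saline libraries came from knockout and wild type mice given saline and a normal diet, so AngII and the diet cannot be told apart. Each library pooled the thoracic aortas of 3 mice, after removal of the surrounding fat and a sort for viable cells, and there was 1 library per group. Differences between groups therefore have no replicate check and no test, and all intervals given here are 95% intervals that cover counting error only.

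Smooth muscle of the vessel wall comes from several embryonic sources. Cells of the neural crest, which pass through the pharyngeal arches, form smooth muscle of the aortic arch and its branches. The second heart field, a pool of cardiac progenitors, adds smooth muscle at the root, and mesoderm of the somites supplies the descending aorta. Dlx5 and Dlx6 are neighbouring homeobox genes that specify the ventral part of the arches downstream of endothelin signalling. Msx2 is a homeobox gene that responds to bone morphogenetic proteins (BMPs). Tfap2b encodes an AP-2 factor of the neural crest that is needed for closure of the ductus arteriosus. Prrx2 is a homeobox gene of arch, limb and vascular mesenchyme. Hand2 encodes a basic helix-loop-helix factor of the heart fields and the ventral arches, and Meox1 is a homeobox gene of the somites that is also used by activated fibroblasts.

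Dlx6 lies at chr6:6863334-6868568 on the plus strand and Dlx5 at chr6:6877805-6882085 on the minus strand of the mouse genome build GRCm38, with 9236 bases between them. Msx2 lies at chr13:53466884-53473074 (minus), Tfap2b at chr1:19208914-19238576 (plus), Prrx2 at chr2:30834972-30881251 (plus), Hand2 at chr8:57320983-57324633 (plus) and Meox1 at chr11:101877510-101894374 (minus). Dlx6, Hand2 and Meox1 are overlapped by genes on the opposite strand (Dlx6os1 and Dlx6os2, Hand2os1, and Gm11551). Whether the counting used strand was not stated, so UMIs of these 3 genes may include reads of the partner. RefSeq promoter windows of the same build were matched for 4 of the 7 genes (Msx2, Tfap2b, Prrx2 and Hand2). The bases before the RefSeq start are shown for Tfap2b (chr1:19211804-19212053) and Hand2 (chr8:57320733-57320982), both on the plus strand, because these genes were the pair found together in fewer smooth muscle cells than their shares give. The Hand2 window ends at the gene start given above, whereas the Tfap2b window lies inside the gene body given above, downstream of that start. Capitals mark the homeodomain-type words TAATTA and TAATTG on either strand, where CAATTA is TAATTG read on the other strand.
Tfap2b: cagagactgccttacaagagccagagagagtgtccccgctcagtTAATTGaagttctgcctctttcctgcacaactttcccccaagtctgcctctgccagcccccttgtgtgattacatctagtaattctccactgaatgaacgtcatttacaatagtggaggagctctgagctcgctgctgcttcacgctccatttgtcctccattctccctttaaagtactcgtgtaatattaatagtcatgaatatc
Hand2: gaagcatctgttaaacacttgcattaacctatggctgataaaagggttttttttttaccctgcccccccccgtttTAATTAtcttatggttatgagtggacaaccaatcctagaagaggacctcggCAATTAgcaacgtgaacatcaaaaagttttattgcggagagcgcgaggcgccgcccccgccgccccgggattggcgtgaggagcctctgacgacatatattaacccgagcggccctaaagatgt
The Tfap2b window holds TAATTG at 1 place, and the Hand2 window holds TAATTA and TAATTG at 1 place each. Of 32851 RefSeq promoter windows, 4.84% hold TAATTA and 7.17% hold TAATTG. These matches describe letters and do not show binding.

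The libraries held 8507 (KO AngII), 8495 (WT AngII), 12053 (KO saline) and 9261 (WT saline) cells, with totals between 60064038 and 94698727 unique molecular identifiers (UMIs, each standing for 1 captured transcript). Pairs of libraries shared 92 to 148 cell barcodes. Tmem173, the gene of STING, gave 578 UMIs in the KO AngII library and 637 in the WT AngII one, and 102 UMIs in the KO saline library and 105 in the WT saline one. The labels do not say which part of the gene was deleted, and counts of the transcript's end check a deletion only where it removes that end, so the genotype labels could not be checked. The KO AngII library also held many more UMIs than WT AngII of the caudal position genes Hoxc10 (519 against 0) and Hoxa10 (481 against 5) in smooth muscle cells, and Hoxc10 gave 60 UMIs against 0 in fibroblasts. Whether the libraries cover the same stretch of aorta was not tested, and in every KO AngII value position along the aorta cannot be told apart from genotype and treatment.

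Cells were gated by marker UMIs. The smooth muscle (SMC) gate (Myh11 of 3 or more) held 5668, 5906, 10372 and 7563 cells of the KO AngII, WT AngII, KO saline and WT saline libraries, with a median of 8717.5, 10292, 6459 and 6393 UMIs per cell. The fibroblast gate (Dcn and Lum together 10 or more, Myh11 of 1 or less) held 1880, 1698, 506 and 1021 cells in the same libraries, with medians of 11778.5, 9150, 3874.5 and 3608 UMIs. All 6 smooth muscle markers were detected in the SMC gate and all 6 fibroblast markers in the fibroblast gate of every library. The endothelial gate (Pecam1 and Cdh5 together 2 or more) held 147, 177, 374 and 1267 cells, of which 39.5%, 47.5%, 75.4% and 82.7% also passed the SMC gate. Because of this overlap, endothelial values are also given for 44, 24, 55 and 117 of these cells, a choice made after the data were seen. These cells had Myh11 of 1 or less and Dcn and Lum together under 10, and are called the endothelial gate alone. A phagocyte gate (Lyz2, C1qa and C1qb together 10 or more, Myh11 of 1 or less, Dcn and Lum together 1 or less) of 451, 568, 55 and 235 cells served as the measure of free RNA. Its upper limits on Myh11, Dcn and Lum leave out phagocytes with the most free RNA of those genes. Levels are UMIs per 1000000 UMIs of the gate (CPM).

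The 4 arch genes were rare in smooth muscle and lower in both AngII libraries. Dlx5 gave 106 UMIs (1.77 CPM) in KO AngII, 139 (2.15 CPM) in WT AngII, 212 (3.01 CPM) in KO saline and 267 (5.04 CPM) in WT saline. It was detected in 1.45%, 1.74%, 1.66% and 2.31% of SMC-gate cells in that order of libraries. The Dlx5 level ran KO AngII, WT AngII, KO saline and WT saline from low to high, and the intervals of KO AngII (1.45 to 2.14 CPM) and WT AngII (1.81 to 2.54 CPM) overlapped. Dlx6 followed the same order, with 0.918, 1.34, 1.76 and 2.89 CPM (55, 87, 124 and 153 UMIs) in KO AngII, WT AngII, KO saline and WT saline. The Dlx6 interval of WT AngII (1.08 to 1.66 CPM) overlapped those of KO AngII (0.692 to 1.20 CPM) and KO saline (1.46 to 2.10 CPM). Its unthinned share of positive cells was 1.10% in WT AngII and 0.993% in KO saline. Msx2 gave 1.39, 1.59, 2.44 and 2.57 CPM (83, 103, 172 and 136 UMIs) in these libraries. The Msx2 intervals overlapped within the AngII libraries and within the saline libraries. Tfap2b gave 1.24, 0.742, 2.53 and 2.30 CPM (74, 48, 178 and 122 UMIs) in KO AngII, WT AngII, KO saline and WT saline. Here the lowest library was WT AngII, with an interval that touched that of KO AngII, and the saline libraries did not differ beyond their intervals.

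Deeper cells give more detections, so each cell was also thinned to 3000 UMIs, which left out 0, 0, 1190 and 227 SMC-gate cells of KO AngII, WT AngII, KO saline and WT saline. After thinning, Dlx5 was detected in 0.582%, 0.762%, 0.871% and 1.23% of cells in those libraries, and Tfap2b in 0.388%, 0.271%, 0.632% and 0.573%. The thinned shares of all 4 arch genes were lower in both AngII libraries than in either saline library, as the CPM was. Some thinned intervals of AngII and saline libraries overlapped for each of the 4 genes. Dlx6 was at 0.474% (0.315% to 0.684%) in WT AngII and 0.490% (0.358% to 0.655%) in KO saline. In the phagocyte gate, Msx2 gave 0 UMIs in all 4 libraries, and Dlx5, Dlx6 and Tfap2b gave 0 to 2 UMIs per library. Median depths there were 7087, 7349, 5397 and 4480 UMIs in KO AngII, WT AngII, KO saline and WT saline. A count of 0 for Msx2 allowed a share of up to 0.665% of phagocyte-gate cells in KO AngII and 0.528% in WT AngII, below the Msx2 shares in smooth muscle (1.01% and 1.15%). The small saline phagocyte gates allowed up to 5.45% (KO saline) and 1.28% (WT saline), too wide to set a background there.

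Prrx2 was far more widely detected and went the other way. It gave 1790 UMIs (29.9 CPM) in KO AngII and 2080 (32.2 CPM) in WT AngII smooth muscle, against 1143 (16.2 CPM) in KO saline and 707 (13.3 CPM) in WT saline. Positive cells made up 15.6% of KO AngII and 19.5% of WT AngII smooth muscle, against 6.85% of KO saline and 5.94% of WT saline. After thinning the shares were 6.03%, 7.53%, 3.90% and 3.07% in those libraries. Both AngII libraries were above both saline libraries on every one of these measures. In the phagocyte gate Prrx2 was detected in 2.44%, 2.29%, 0% and 0.426% of cells. The 6 fibroblast markers summed to 1530, 1595, 717.8 and 530.5 CPM in the SMC gate of those libraries, so they were higher under AngII as well.

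Hand2 gave 771 UMIs (12.9 CPM) in KO AngII, 1323 (20.4 CPM) in WT AngII, 1974 (28.0 CPM) in KO saline and 1445 (27.3 CPM) in WT saline smooth muscle. It was detected in 9.44%, 14.8%, 13.9% and 12.96% of cells of those libraries, and in 3.53%, 5.10%, 7.41% and 6.67% after thinning. By CPM and by thinned share the saline libraries stood above WT AngII and KO AngII stood lowest, with overlapping CPM intervals in the saline libraries. By the unthinned share WT AngII, the library with the deepest cells, was highest. Hand2 gave 0, 3, 1 and 0 UMIs in phagocyte-gate cells. Meox1 was scarce in smooth muscle, at 0.985, 0.587, 0.653 and 0.264 CPM from 59, 38, 46 and 14 UMIs in KO AngII, WT AngII, KO saline and WT saline. The part of fibroblast RNA in these smooth muscle UMIs of Meox1 was not tested.

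**Figure D1:**
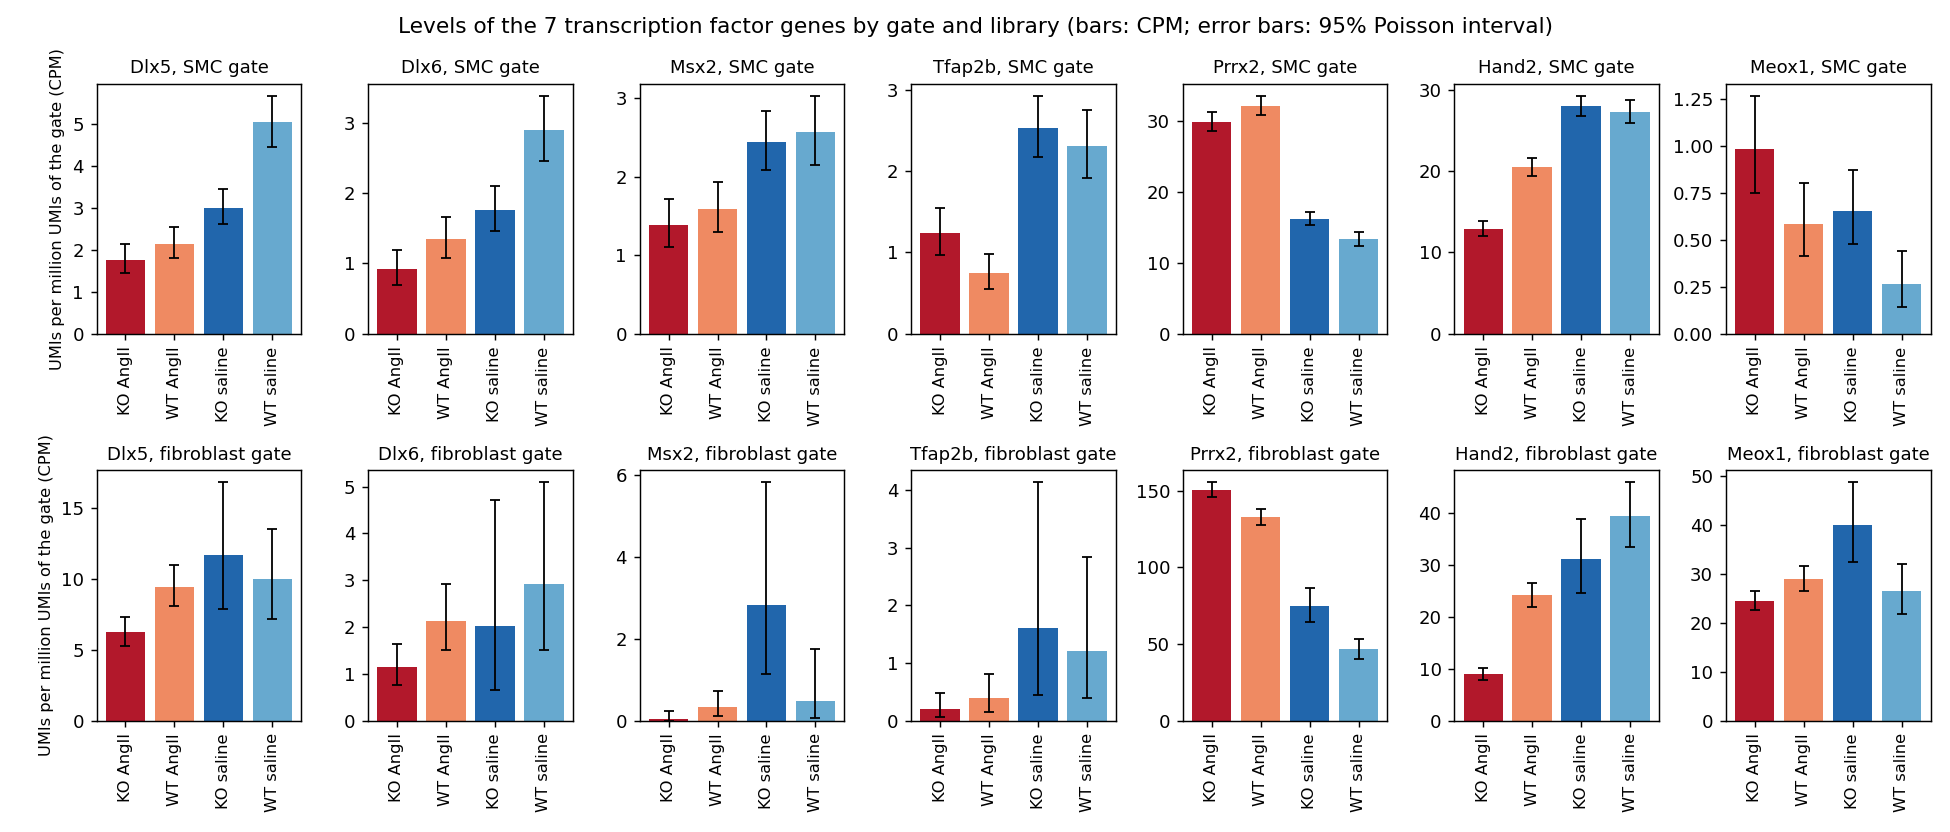
Level of each gene in UMIs per 1000000 UMIs of the gate (CPM, vertical axis with its own scale in each panel) in the KO AngII, WT AngII, KO saline and WT saline libraries, for the SMC gate (top) and the fibroblast gate (bottom). Bars are 1 library each and error bars are exact 95% Poisson intervals of the UMI count. Prrx2 is higher in the AngII libraries in both gates, while Dlx5, Dlx6, Msx2 and Tfap2b are lower there in smooth muscle.

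Fibroblasts shared some of these genes with smooth muscle and held few UMIs of others. Meox1, the somite gene, was mostly a fibroblast gene. It gave 603 UMIs (24.5 CPM) in KO AngII, 519 (29.0 CPM) in WT AngII, 99 (40.0 CPM) in KO saline and 109 (26.5 CPM) in WT saline fibroblasts. The log2 ratio of fibroblast over smooth muscle CPM was 4.63, 5.63, 5.94 and 6.65 in those libraries, and 82.4%, 90.1%, 58.2% and 80.7% of all Meox1 UMIs of a library lay in the fibroblast gate. Its thinned share of positive fibroblasts was 5.05%, 5.89%, 6.01% and 3.75%.

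Prrx2 gave 3710 UMIs (150.5 CPM) in KO AngII, 2377 (132.8 CPM) in WT AngII, 185 (74.7 CPM) in KO saline and 191 (46.4 CPM) in WT saline fibroblasts. It was detected in 72.6%, 62.6%, 24.1% and 14.3% of fibroblast-gate cells, and in 33.9%, 31.4%, 18.9% and 10.3% after thinning, which left out 173 KO saline and 354 WT saline cells. Prrx2 was thus higher in fibroblasts than in smooth muscle in each library, at log2 ratios of 2.33, 2.05, 2.20 and 1.80. All 4 libraries had separate Prrx2 intervals in fibroblasts.

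The distal-less pair differed between the gates. Dlx5 was higher in fibroblasts than in smooth muscle, at 6.25, 9.44, 11.7 and 9.96 CPM from 154, 169, 29 and 41 UMIs in KO AngII, WT AngII, KO saline and WT saline (log2 ratio 1.82, 2.14, 1.96 and 0.98). Dlx6, its neighbour, had log2 ratios of 0.31, 0.66, 0.20 and 0.01 from 28, 38, 5 and 12 fibroblast UMIs. The WT AngII interval of that ratio (0.07 to 1.22) lay above 0, and the other 3 included 0, the widest being that of KO saline (-1.45 to 1.46). Most Msx2 UMIs lay in the SMC gate, which also held most cells, at 96.5%, 88.8%, 87.8% and 89.5% of each library's Msx2 UMIs. Fibroblasts gave 1, 6, 7 and 2 Msx2 UMIs, and the log2 ratio of fibroblast over smooth muscle was -5.09, -2.25, 0.21 and -2.40. Msx2 was thus lower in fibroblasts in 3 libraries, and in KO saline the interval (-1.12 to 1.29) included 0. Tfap2b gave 5, 7, 4 and 5 UMIs in fibroblasts, and its log2 ratio of fibroblast over smooth muscle was -2.61, -0.92, -0.65 and -0.92. The KO AngII interval of the Tfap2b ratio (-4.27 to -1.32) lay below 0, and those of WT AngII, KO saline and WT saline included 0.

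Hand2 gave 220 UMIs (8.93 CPM) in KO AngII, 432 (24.1 CPM) in WT AngII, 77 (31.1 CPM) in KO saline and 162 (39.4 CPM) in WT saline fibroblasts. A single WT saline cell carried 19 of the 162. The order of libraries was that of smooth muscle for the lowest pair, KO AngII and then WT AngII. The saline intervals overlapped, and that of KO saline (24.6 to 38.9 CPM) also overlapped that of WT AngII (21.9 to 26.5 CPM). The fibroblast over smooth muscle log2 ratio of Hand2 was -0.53 in KO AngII and between 0.15 and 0.53 in the other libraries.

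Cells that passed the endothelial gate alone held higher Dlx5 and Dlx6 levels than the SMC and fibroblast gates of the same library. In the whole endothelial gate, Dlx5 was at 17.8, 20.5, 10.8 and 12.1 CPM, and Dlx6 at 7.38, 8.38, 4.04 and 6.15 CPM, in KO AngII, WT AngII, KO saline and WT saline. Dlx5 reached 21.4, 14.6, 34.8 and 69.1 CPM from 10, 3, 10 and 38 UMIs in the cells of the endothelial gate alone. Dlx6 reached 4.28, 9.71, 13.9 and 30.9 CPM in the same cells, from 2, 2, 4 and 17 UMIs. The WT saline counts carry most of this, and the WT AngII interval for Dlx5 ran from 3.00 to 42.6 CPM, which includes its fibroblast level. The Dlx6 intervals of KO AngII (0.518 to 15.5 CPM) and WT AngII (1.18 to 35.1 CPM) include its SMC and fibroblast levels. Tfap2b was also above both gates in KO AngII, KO saline and WT saline, at 8.56, 10.5 and 12.7 CPM from 4, 3 and 7 UMIs. It gave 0 UMIs in WT AngII, and its KO saline interval (2.16 to 30.6 CPM) includes its SMC level. Msx2 was above both gates in the saline libraries, from 3 UMIs each, and gave 0 UMIs in both AngII libraries. In KO saline these 3 UMIs came from 1 cell. The Msx2 intervals of KO saline (2.16 to 30.6 CPM) and WT saline (1.13 to 15.9 CPM) include its SMC levels. Prrx2 was above both gates in WT saline only, at 72.8 CPM. In these cells smooth muscle markers summed to 3284 CPM in KO AngII and 1852 CPM in WT saline, and the part of other cells' RNA in the values was not tested.

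In smooth muscle, 3 of the 7 genes were at least 2-fold lower (Dlx5, Dlx6 and Tfap2b) and 2 were at least 2-fold higher (Prrx2 and Meox1) in WT AngII than in WT saline. Among the 12709 genes with at least 50 UMIs over both libraries, 5.44% were at least 2-fold lower and 7.07% at least 2-fold higher. Dlx5 was 2.35-fold lower in WT AngII than in WT saline, with a log2 ratio of -1.23 (interval -1.54 to -0.93). Tfap2b had a log2 ratio of -1.63 (-2.15 to -1.14), the lowest of the 7, and Dlx6 one of -1.10 (-1.50 to -0.71). Msx2 pointed the same way within 2-fold, at -0.69 (-1.07 to -0.31), and so did Hand2, at -0.42 (-0.52 to -0.31). Prrx2 was 2.41-fold higher, at 1.27 (1.14 to 1.39), and it was at 1.42 in a stricter gate that admits at most 1 UMI of Dcn and Lum. Meox1 was 2.22-fold higher, at 1.15 (0.24 to 2.15), from 38 WT AngII and 14 WT saline UMIs. The median log2 ratio of the 7 genes was -0.69, beside -0.11 over all genes tested. Endothelial marker levels differed as well, and the 6 markers summed to 11.5, 10.7, 29.0 and 91.9 CPM in the SMC gate of KO AngII, WT AngII, KO saline and WT saline. Cells that also passed the endothelial gate made up 84 of 5906 SMC-gate cells in WT AngII and 1048 of 7563 in WT saline. Without them the ratios were as large or nearly so, with Dlx5 at -1.28, Dlx6 at -1.15 and Tfap2b at -1.45.

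In the knockout libraries, 2 of the 7 genes, Tfap2b and Hand2, were at least 2-fold lower in KO AngII than in KO saline smooth muscle, and 0 were at least 2-fold higher. Among 12827 genes, 6.38% were lower and 6.59% higher by that measure. Hand2 had a log2 ratio of -1.12 (-1.24 to -1.002) and Tfap2b one of -1.03 (-1.44 to -0.63). Dlx5 (-0.77), Dlx6 (-0.94) and Msx2 (-0.82) were below 0 with intervals that excluded it. Prrx2 was 1.84-fold higher in KO AngII, at 0.88 (0.77 to 0.99), and Meox1 had a ratio of 0.59 (0.01 to 1.18). The median log2 ratio of the 7 genes was -0.82, beside -0.17 over all genes tested. The direction of all 7 genes was the same in the knockout and the wild type pair, and each pair has its own control library. Both calls of this pair depended on the processing: Hand2 was at -0.79 and Tfap2b at -0.61 with a stricter gate (Myh11 of 10 or more, Dcn and Lum together 1 or less), where Prrx2 was at 0.83. Without the cells holding Hoxa10, Hoxc10 or Hoxd8, Hand2 was at -1.01 and Tfap2b at -0.87. Without cells of the endothelial gate, Dlx6 was at -1.08, past 2-fold.

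Between genotypes under AngII, 0 of the 7 genes were 2-fold apart in smooth muscle, where 2.15% of 12766 genes were higher by that fold and 1.43% lower in KO AngII than in WT AngII. The Hand2 ratio was -0.67 (-0.80 to -0.54), a 1.59-fold lower level in KO AngII. It was -0.35 with the stricter gate and -0.55 without cells holding Hoxa10, Hoxc10 or Hoxd8. Tfap2b (0.74, interval 0.19 to 1.29) and Meox1 (0.75, interval 0.13 to 1.37) were higher in KO AngII within 2-fold. Prrx2 differed by 1.08-fold (-0.11, interval -0.20 to -0.01). The median over the 7 genes was -0.20, beside -0.05 over all genes tested.

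Under saline, 1 of the 7 genes, Meox1, was at least 2-fold higher in KO saline than in WT saline smooth muscle, and 0 were at least 2-fold lower, beside 2.34% and 2.19% of 12599 genes. The Meox1 ratio of 1.31 (0.42 to 2.28) rested on 46 KO saline and 14 WT saline UMIs. Dlx5 and Dlx6 were 1.67-fold and 1.64-fold lower in KO saline, at -0.74 (-1.01 to -0.48) and -0.71 (-1.07 to -0.36). Of 10372 SMC-gate cells in KO saline 282 also passed the endothelial gate, a smaller part than in WT saline. Without such cells Dlx5 was at -0.61 and Dlx6 at -0.56.

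Fibroblasts showed the Prrx2 and Hand2 differences again, in other cells of the same libraries. Prrx2 was the 1 gene of 5 with enough UMIs that was at least 2-fold higher in WT AngII than in WT saline fibroblasts, at 1.52 (1.30 to 1.74), where 7.56% of 11037 genes were higher and 8.16% lower. In KO AngII against KO saline fibroblasts, Prrx2 was higher at 1.01 (0.80 to 1.23) and Hand2 lower at -1.80 (-2.18 to -1.41), 2 of 4 genes, beside 7.67% higher and 14.4% lower of 11002. Hand2 was 2.70-fold lower in KO AngII than in WT AngII fibroblasts, at -1.44 (-1.68 to -1.20), the 1 gene of 5 called, beside 5.71% of 11737 genes lower and 1.98% higher. Without fibroblast-gate cells holding Hoxa10, Hoxc10 or Hoxd8, Hand2 was at -1.405 (KO AngII against WT AngII) and -1.76 (KO AngII against KO saline). Between KO saline and WT saline fibroblasts 0 of 4 genes were 2-fold apart, where 3.09% of 8700 genes were higher and 3.09% lower. Prrx2 was at 0.69 (0.39 to 0.99) in that comparison and Meox1 at 0.59 (0.19 to 1.0006). Contractile genes differed between these fibroblast gates too, with 5 of 9 tested at least 2-fold higher in KO saline. Acta2, smooth muscle actin, was at 2792 CPM in KO saline and 807.3 CPM in WT saline (log2 ratio 1.79), and the part of smooth muscle RNA was not tested.

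**Figure D2:**
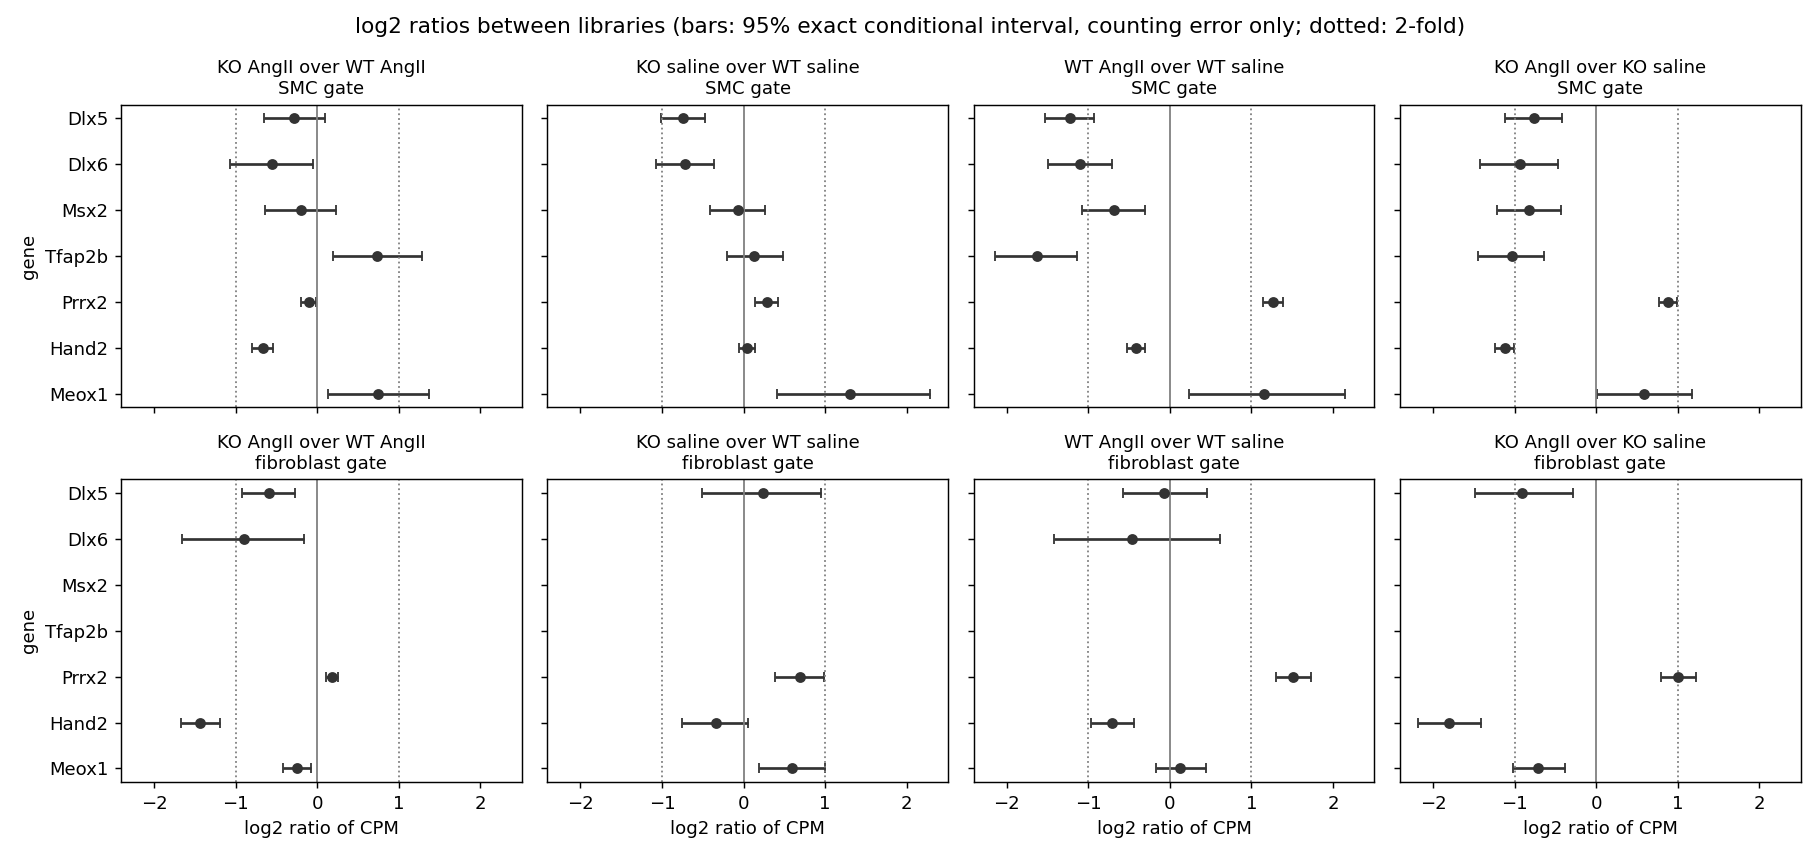
log2 ratio of CPM of the first named over the second named library (horizontal axis) for each gene with at least 50 UMIs over both libraries, in 4 comparisons of the SMC gate (top) and the fibroblast gate (bottom). Points are the ratios, bars exact conditional 95% intervals of the counts, and dotted lines 2-fold. Prrx2 lies right of 0 in both AngII over saline panels of both gates, and Hand2 lies left of 0 there.

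Other genes of these pathways were taken from lists, chosen with results of these data known, and their counts stand beside the shares of all genes given above for the same comparisons. In smooth muscle of WT AngII against WT saline, 2 of 20 tested neural crest and arch genes were at least 2-fold higher (Sox9 at 1.72 and Snai1 at 1.64, a cartilage factor and a repressor of epithelial genes) and 2 were lower (Alx1 at -2.94 and Meis1 at -1.04), near the 7.07% higher and 5.44% lower among all genes. Of 8 second heart field and cardiac genes, 4 were lower: Isl1, the factor that marks second heart field progenitors, at -1.37, the cardiac factor Gata4 at -1.08, the thin filament gene Tnnt2 at -1.25 and Actc1 at -1.21. In KO AngII against KO saline, 3 of 9 such genes were lower, with Gata4 at -3.12, Tnnt2 at -1.97 and Nkx2-5 at -2.09, while 2 of 20 neural crest and arch genes were higher (Sox9 at 1.70 and Snai1 at 1.004). Among all genes of that comparison 6.38% were lower and 6.59% higher. Ednra, the endothelin receptor upstream of the arch genes, was at -0.95 in both AngII over saline comparisons.

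Among the same lists, KO AngII against WT AngII smooth muscle gave 0 of 18 neural crest and arch genes apart by 2-fold. Of 8 second heart field and cardiac genes Isl1 was higher (1.62) and Gata4 lower (-1.57). Of 21 Hox genes 7 were higher and 0 lower, Hoxa10 and Hoxc10 among them, beside 2.15% higher and 1.43% lower among all genes. In KO saline against WT saline, 2 of 21 neural crest and arch genes were higher (Hand1 at 1.27 and Snai1 at 1.35) and 0 of 9 second heart field and cardiac genes were apart, beside 2.34% higher and 2.19% lower among all genes.

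Within single smooth muscle cells, the 4 arch genes were found together far more often than their shares give. The expected number of double positive cells was the product of the 2 shares and the cells of the gate. Dlx5 and Dlx6 shared 18 KO AngII, 29 WT AngII, 45 KO saline and 57 WT saline cells, against 0.680, 1.13, 1.71 and 2.64 expected. Summed over libraries these were 149 cells where 6.16 were expected, a ratio of 24.2 (20.5 to 28.4). Dlx5 and Msx2, from different chromosomes, shared 137 cells where 6.37 were expected, a ratio of 21.5, and Msx2 and Tfap2b shared 94 where 3.71 were expected, a ratio of 25.4. All 6 pairs among these 4 genes lay between 15.5 and 25.5, and every pair was above its expected number in each of the 4 libraries. With the expected number summed over 10 bins of cell depth, the ratios ran from 13.7 to 22.7.

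Prrx2 joined this group. It was found with Dlx5 in 306 cells against 55.0 expected (ratio 5.56), with Dlx6 at a ratio of 6.65, with Msx2 at 6.505 and with Tfap2b at 6.97. Each of these pairs exceeded its expected number in all 4 libraries. Tfap2b with Prrx2, for example, gave 50, 32, 72 and 55 cells in KO AngII, WT AngII, KO saline and WT saline, against 9.04, 6.83, 8.71 and 5.402 expected.

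Hand2 stood apart from the arch genes. With Tfap2b it shared 1, 1, 5 and 4 cells in KO AngII, WT AngII, KO saline and WT saline, against 5.47, 5.18, 17.6 and 11.8 expected. This pair was below its expected number in all 4 libraries, at a summed ratio of 0.274 (0.137 to 0.491). Hand2 was near its expected number with Dlx6 (1.02), Msx2 (1.14) and Prrx2 (1.16), and at 1.32 with Dlx5. The Dlx5 value came mainly from WT AngII, where 34 cells held both and 15.2 were expected. Meox1 gave ratios of 2.51 with Prrx2 and 2.17 with Hand2, from 36 and 31 cells. Over the depth bins these ratios were 1.82 and 1.87. Of the 36 cells with Meox1 and Prrx2, 20 were in KO AngII, and KO saline had 2 where 2.67 were expected. Fibroblasts showed the Dlx5 and Dlx6 pair in 34 cells against 4.46 expected (ratio 7.62). Summed over libraries, Prrx2 with Hand2 (1.09) and Prrx2 with Meox1 (1.16) were near 1 there. By library, Prrx2 with Meox1 was at 1.14 in KO AngII and 1.08 in WT AngII fibroblasts. Most of those cells held Prrx2, so the ratio could not rise far above 1. In KO saline and WT saline fibroblasts this pair was at 2.01 and 2.49, from 17 and 16 cells, and at 1.70 and 2.16 over depth bins. The genes were chosen with earlier results of these data known, and pairs share cells, depth and library, so these ratios are descriptions.

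**Figure D3:**
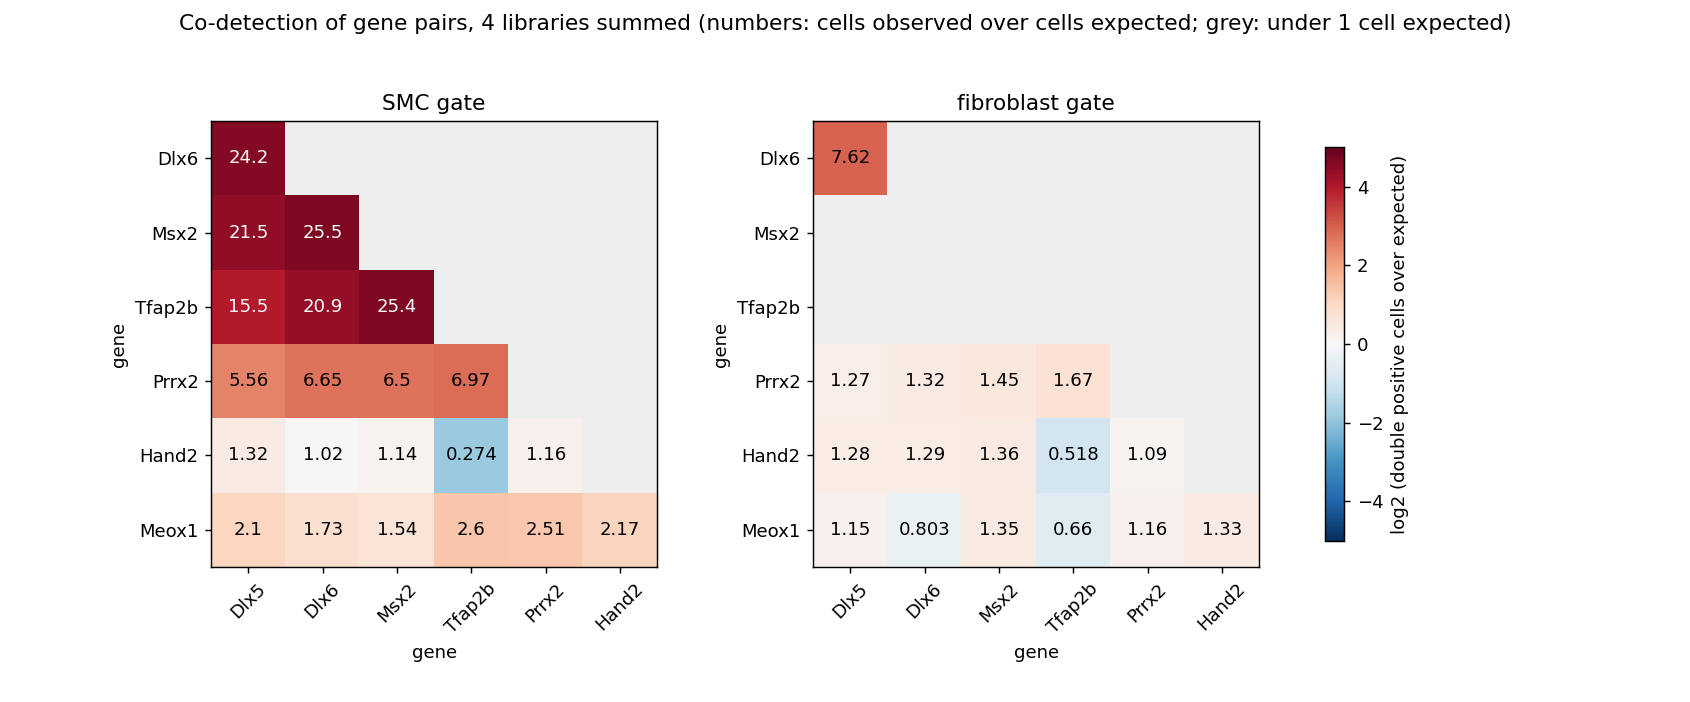
Number of cells positive for both genes over the number expected from the product of their shares, for each pair of genes (axes), summed over the 4 libraries, in the SMC gate (left) and the fibroblast gate (right). The number in a square is the ratio, its colour the log2 of the ratio, and grey squares had under 1 cell expected. The 6 pairs of Dlx5, Dlx6, Msx2 and Tfap2b in smooth muscle lie between 15.5 and 25.5, and Tfap2b with Hand2 at 0.274.

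Cells with 2 or more of the 4 arch genes numbered 56 (0.988%) for KO AngII, 63 (1.07%) for WT AngII, 125 (1.21%) for KO saline and 118 (1.56%) for WT saline. A further 115, 119, 240 and 192 cells held 1 of them, and 3, 2, 5 and 8 held all 4. After thinning, cells with 2 or more made up 0.141%, 0.356%, 0.425% and 0.668% of the gate. Their median depth was 9433, 10819, 8452 and 7160.5 UMIs in KO AngII, WT AngII, KO saline and WT saline, above the gate's median in each library. Prrx2 was detected in 92.9%, 95.2%, 77.6% and 66.1% of the cells with 2 or more arch genes. It was detected in 13.8%, 17.9%, 5.32% and 4.11% of the cells with none.

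The Prrx2 level was higher with more arch genes in every library. In KO AngII it was 22.8 CPM in cells with 0, 216.0 CPM with 1 and 345.6 CPM with 2 or more. In WT saline it was 7.41, 105.2 and 211.9 CPM. Cells with 0 arch genes still held 74.2%, 78.8%, 59.3% and 53.2% of the gate's Prrx2 UMIs in KO AngII, WT AngII, KO saline and WT saline. In those cells Prrx2 was 22.8 and 26.1 CPM in KO AngII and WT AngII, against 10.0 and 7.41 CPM in KO saline and WT saline. The higher level under AngII was thus also present in cells with no arch gene detected. A rare transcript can go undetected in a cell that holds it, so that class may include cells that express arch genes. In cells with 2 or more it was 345.6 and 374.9 CPM under AngII, against 295.9 and 211.9 CPM under saline.

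Hand2 did not follow the number of arch genes in this way. In cells with 0 arch genes it was 12.9, 20.003, 28.4 and 27.2 CPM in KO AngII, WT AngII, KO saline and WT saline, and in cells with 2 or more it was 1.66, 20.5, 20.9 and 21.8 CPM, from 1, 14, 22 and 19 UMIs. KO AngII was low in the last class, where 1 of 56 cells was Hand2 positive. In cells with 1 arch gene Hand2 was 15.3, 42.4, 18.2 and 33.9 CPM, from 18, 54, 32 and 47 UMIs. The WT AngII interval with 1 arch gene (31.9 to 55.4 CPM) lay above that with 0 (18.9 to 21.1 CPM).

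**Figure D4:**
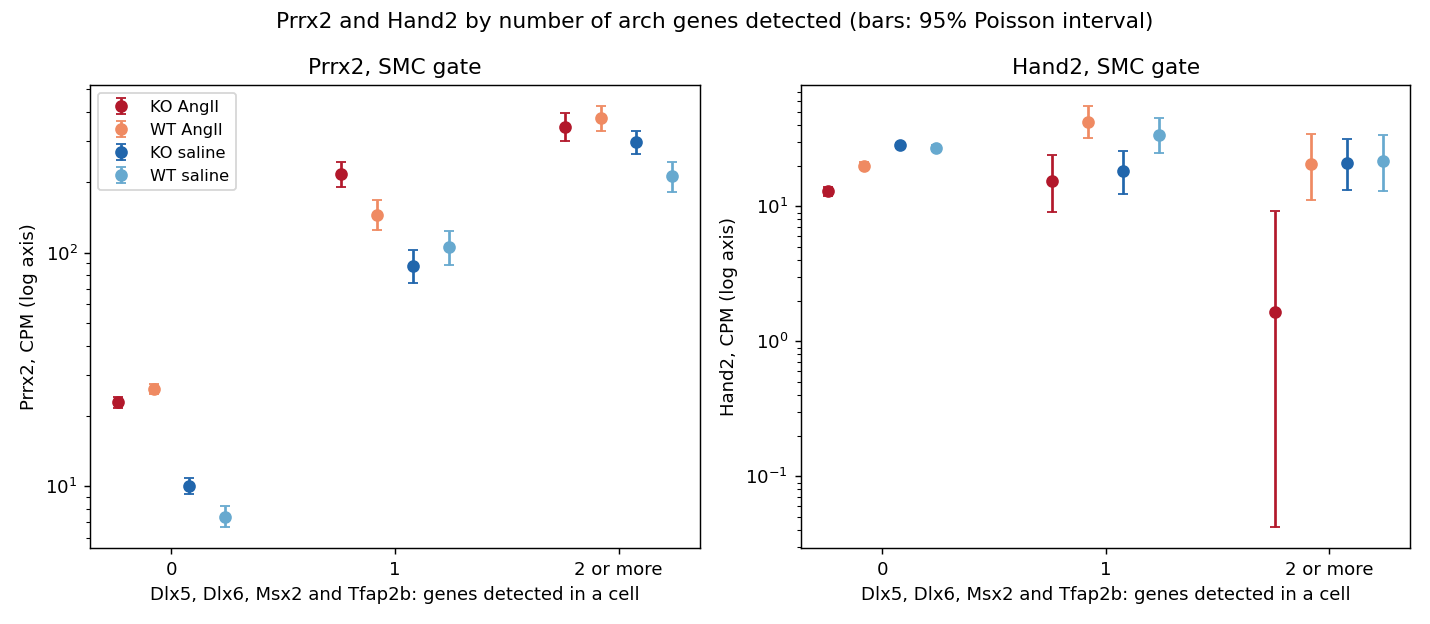
Prrx2 (left) and Hand2 (right) in CPM on a log axis, in SMC-gate cells with 0, 1 or 2 or more of Dlx5, Dlx6, Msx2 and Tfap2b detected (horizontal axis), by library. Points are 1 library each and bars exact 95% Poisson intervals. Prrx2 lies between 7.41 and 26.1 CPM with 0 arch genes and between 211.9 and 374.9 CPM with 2 or more, while Hand2 shows no such step.

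Other patterning genes were then compared between classes of smooth muscle cells. The arch class held the 56, 63, 125 and 118 cells with 2 or more arch genes. The Hand2 class held the 520, 828, 1397 and 935 cells of KO AngII, WT AngII, KO saline and WT saline with Hand2 and no arch gene. Cells with neither made up the remainder, apart from those with 1 arch gene. These classes were defined after values were seen, so a gene's difference between them is a description. A gene counted as higher where it was at least 2-fold higher in all 4 libraries, and 2.35% of 12753 genes did so in the arch class against neither, while 0.698% of 8600 were lower.

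In the arch class, 7 of 20 neural crest and arch genes were higher in all 4 libraries (Dlx2, Dlx6os1, Meis1, Msx1, Six2, Snai1 and Tbx3). Dlx2, another distal-less gene of the arches, was at 14.96, 17.6, 15.2 and 27.5 CPM in the arch class of KO AngII, WT AngII, KO saline and WT saline, against 0.0769, 0.133, 0.195 and 0.0697 CPM in cells with neither. Six2 rested on 1 to 4 UMIs per library in the arch class. Dlx6os1 overlaps Dlx6 on the other strand, so its value is not independent of the class. Of 14 endothelin and BMP genes, Ednra and Nog were higher (2), and of 6 osteogenic and valve genes Runx2 was (1), while 0 of 7 second heart field and cardiac genes were. Ednra was at 13.3, 19.0, 28.5 and 52.7 CPM in the arch class, against 1.69, 1.49, 2.95 and 2.74 CPM in neither, and the BMP antagonist Nog had log2 ratios between 3.76 and 4.74. Runx2, the master factor of bone formation, was at 11.6, 20.5, 14.3 and 18.3 CPM in the arch class, against 0.576, 0.591, 0.373 and 0.349 CPM in neither.

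Of the somite and lateral mesoderm list, Foxf1 and Pax9 (2 of 7) were higher in the arch class. Foxf1, a forkhead gene of lateral mesoderm, was at 46.5, 67.4, 73.3 and 66.4 CPM in the arch class, against 5.28, 8.79, 16.2 and 13.2 CPM in neither. Of the Hox genes, which mark position along the body axis, Hoxa4 and Hoxd4 were higher (2 of 20), and Hoxa7, Hoxb6, Hoxb7 and Hoxb8 were lower (4 of the 10 deep enough to show it). Hoxb6 was at 3.32, 4.39, 8.56 and 10.3 CPM in the arch class, against 14.8, 18.7, 27.0 and 25.5 CPM in neither. The 10 contractile genes gave 0 higher and 0 lower. They summed to 27340, 20833, 27591 and 20358 CPM in the arch class, against 34493, 33589, 42147 and 39142 CPM in neither.

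Cells of the arch class also held more pericyte marker UMIs. The 4 markers summed to 2667, 2522, 2949 and 1796 CPM in the arch class of KO AngII, WT AngII, KO saline and WT saline, against 1105, 402.1, 539.5 and 316.4 CPM in neither, most of them Rgs5. Endothelial markers summed to 69.8, 49.8, 31.4 and 152.3 CPM in the arch class, against 10.6, 9.89, 31.6 and 99.5 CPM in neither. Fibroblast markers summed to 1226, 1147, 873.3 and 742.2 CPM in the arch class, against 1502, 1477, 689.5 and 497.5 CPM in neither, and the 3 mesothelial and 3 adipocyte markers were at 0 in the arch class. Glial markers summed to 21.6, 0, 12.4 and 14.9 CPM (13, 0, 13 and 13 UMIs), against 4.71, 2.71, 3.87 and 2.88 CPM in neither. Chondrocyte markers summed to 181.1, 282.6, 150.3 and 155.8 CPM, against 233.5, 189.4, 61.9 and 52.2 CPM in neither. The part of such cells in the class values was not tested.

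The Hand2 class carried another set. Of 8 second heart field and cardiac genes, 3 were higher in all 4 libraries (Gata4, Isl1 and Tnnt2), beside 0.288% of 12859 genes, and 9 of 18 Hox genes were lower, beside 0.285% of 11939 genes. Isl1 gave 30, 11, 53 and 35 UMIs in the Hand2 class, with log2 ratios over neither of 2.55, 2.005, 2.34 and 3.30, and 0 UMIs in the arch class of each library. Gata4 also gave 0 UMIs in the arch class, which holds few cells, and had log2 ratios of 3.51, 2.94, 2.21 and 3.78 in the Hand2 class. Tnnt2 was at 89.8, 153.6, 334.0 and 502.0 CPM in the Hand2 class of KO AngII, WT AngII, KO saline and WT saline, against 24.3, 41.7, 83.0 and 80.8 CPM in neither. Hoxb5, a Hox gene of the trunk, was at 2.80, 2.34, 3.36 and 3.26 CPM in the Hand2 class, against 11.2, 19.0, 22.4 and 27.7 CPM in neither. Of the neural crest and arch list, Tfap2a alone was higher in the Hand2 class (1 of 19), from 8, 12, 18 and 14 UMIs. Tcf21, a gene of lateral mesoderm, was higher (1 of 8 somite and lateral mesoderm genes) and Pax1, a sclerotome gene, lower (1 of 5). Rgs5 was lower in the Hand2 class, at log2 ratios of -2.13, -1.69, -1.37 and -1.41. Fibroblast markers were higher there in every library, at a sum of 1785, 2116, 747.2 and 625.2 CPM. In cells with neither they summed to 1502, 1477, 689.5 and 497.5 CPM. The part of fibroblast RNA in the Hand2 class values, Tcf21 among them, was not tested.

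**Figure D5:**
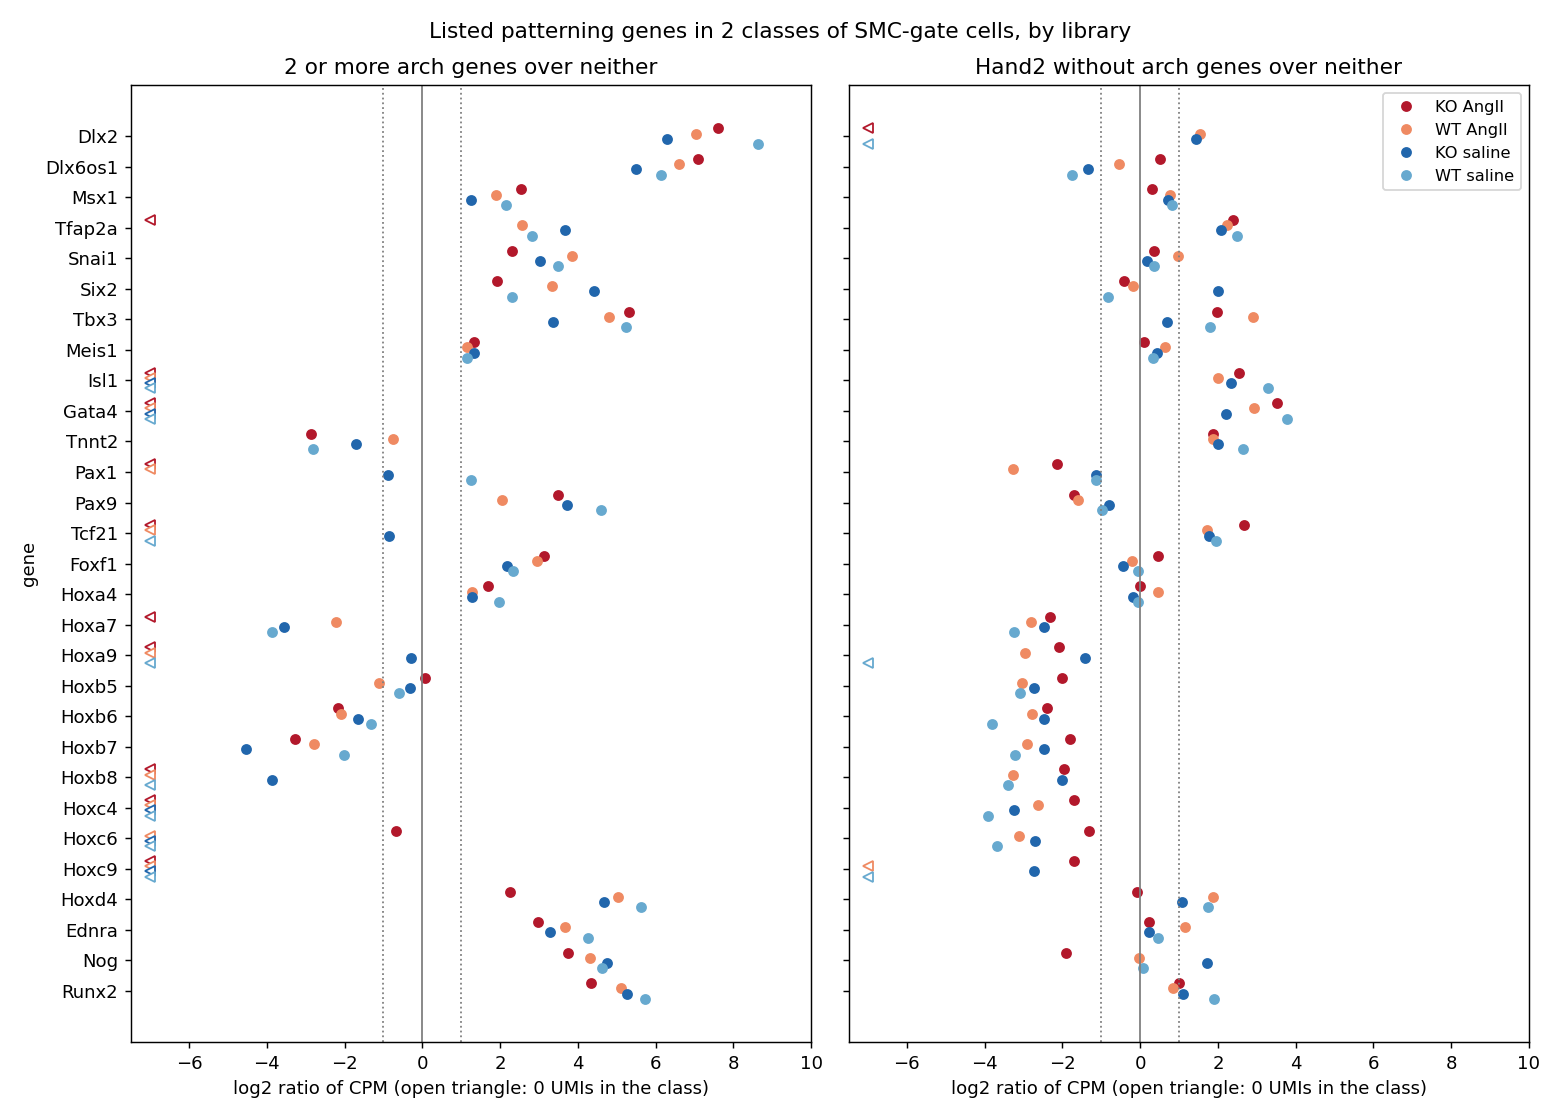
log2 ratio of CPM (horizontal axis) of listed patterning genes in the arch class (left) and the Hand2 class (right) over SMC-gate cells with neither, by library. Points are 1 library each, open triangles mark 0 UMIs in the class, and dotted lines mark 2-fold. Ednra, Nog, Runx2 and Dlx2 lie right of 2-fold on the left, Gata4, Isl1 and Tnnt2 on the right.

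The genes most like each member were ranked by the lowest of 4 log2 ratios, 1 per library, of CPM in positive over negative SMC-gate cells. For Dlx5 these were Coch (lowest ratio 5.36), Dlx6 (5.31), Msx2 (5.10), Adamtsl1 (5.07) and Lrrtm3 (4.78). Dlx6 ranked Dlx5 (5.26), Msx2, Adamtsl1, Prss12 and Tfap2b. The list of Msx2 was Lrrtm3 (5.43), Dlx6, Dlx6os1, Adamtsl1 and Tfap2b, and that of Tfap2b was Msx2 (4.81), Negr1, Pianp, Adamtsl1 and Prss12. Adamtsl1, which encodes a secreted matrix glycoprotein, thus stood on all 4 of these lists. Prrx2 ranked Msx2 (4.31), Tfap2b, Fgf12, Lrrtm3 and Dlx6.

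The ratios of the genes most like Hand2 were smaller. Its list was the unannotated 5033428I22Rik (2.34), Osr2 (2.19), Isl1 (2.09), Pde1c (2.002) and Tnnt2 (1.83), where Osr2 is an odd-skipped factor of mesenchyme and Pde1c a phosphodiesterase of smooth muscle. Meox1 had too few positive smooth muscle cells to be ranked. In fibroblasts, an added ranking, its list was Cilp (0.99), Ass1, Cytl1, Prg4 and Col8a1.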

How the data were processed

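Single-cell libraries were made with the 10x Chromium 3′ kit, per the labels' protocols. The authors deposited 1 table of raw counts (UMIs per gene and cell) per library. Reads were processed with Cell Ranger on mm10, per the submitters' processing notes, with the version not given in the sources used here. The 17524 genes listed in all 4 tables were used with all deposited cells, and no doublet caller was run.

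UMIs were summed per gate and library and divided by the gate's total. Counts have exact Poisson intervals, shares exact binomial (Clopper-Pearson) intervals and ratios exact conditional intervals, each at 95%. Genes needed 50 UMIs over both libraries, and a difference was called at 2-fold. No test was run, since each group is 1 library. Limits for a count of 0 use 3 counts. Comparisons that share a library are not independent. All 7 genes were described, and genes most like each were ranked among genes with 10 UMIs in the positive cells of every library, for genes with 30 positive cells in each, naming 5. The genes and lists were chosen with earlier results of these data known, and the arch and Hand2 classes after their values were seen. In the classes, a gene needed 10 UMIs in every library, and 3 expected in the class to count as lower. Alternatives covered cell filters, gates, scaling, minimum counts and depth. The calculation was tested on simulated data. Gene positions came from GENCODE M21 and promoters from RefSeq (GRCm38.p6). Python 3.11.15, numpy 2.4.6, scipy 1.17.1, pandas 2.3.3, matplotlib 3.10.9, R 4.3.3 and edgeR 4.0.16 (for TMM scaling only) were used.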

Additional observations from a re-analysis of the deposited data

How the results depend on the processing

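Of 425 log2 ratios of single genes recomputed under the alternatives, 389 lay within the interval given in the report, 36 lay outside it, and 0 called ratios reversed. The 389 include 46 ratios under the minimum of 20 UMIs and 33 under that of 200 UMIs. A minimum changes only which genes are included, so these ratios had to equal those of the report. A further 46 came from the cell filter, which left out few cells and kept 5660 of 5668 SMC-gate cells in KO AngII. In smooth muscle, the 1 gene called in KO saline against WT saline (Meox1) became 0 with the stricter gate, with a minimum of 200 UMIs, after thinning and in cells of 5000 or more UMIs, where Meox1 was too sparse to be included. The 5 genes of WT AngII against WT saline became 3 with a minimum of 200 UMIs and 3 after thinning. The 2 genes of KO AngII against KO saline became 0 with the stricter gate. They became 1 with TMM and 1 with median-of-ratios scaling (Prrx2 in place of Hand2 and Tfap2b), 1 in cells of 5000 or more UMIs (Hand2), and 1 without cells holding Hoxa10, Hoxc10 or Hoxd8 (Hand2). In fibroblasts, the 1 gene of KO AngII against WT AngII became 2 without endothelial-gate cells (Dlx6 and Hand2). The 0 genes of KO saline against WT saline became 1 with the stricter gate (Meox1 at 1.06), 1 after thinning (Meox1 at 1.13) and 1 in cells of 5000 or more UMIs (Hand2 at -1.02). The 1 gene of WT AngII against WT saline became 2 in cells of 5000 or more UMIs, and the 2 of KO AngII against KO saline became 4 after thinning. The causes were not tested. The 30 genes most like a gene became 9 shared with the stricter gate and 5 with 2 or more UMIs for a positive cell, where fewer genes could be ranked. Pairs found together at 2 times their expected number or more were 14 of 21, and 11 to 13 under the alternatives. The 10 pairs among Dlx5, Dlx6, Msx2, Tfap2b and Prrx2 were among them in each. The size of the pair ratios depended more on the processing, and 42 of 84 recomputed pair ratios lay within the interval of the summed ratio. Of the 21 pairs, 12 lay outside it after thinning, 11 with the stricter gate and 18 with 2 or more UMIs for a positive cell. TMM scaling moved all ratios up by 0.15 in smooth muscle and 0.31 in fibroblasts of KO AngII against KO saline, and by 0.10 and 0.17 in WT AngII against WT saline.

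No paired analysis was possible because each group had 1 library and the groups compared share fewer than 2 replicate numbers. The alternatives without Hox cells and without endothelial-gate cells, and the cells passing the endothelial gate alone, were chosen after seeing the data. Depth limits the saline fibroblast gates, where Msx2, Tfap2b and Dlx6 gave under 15 UMIs each.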
